A study of Panonychus citri with 4 samples.

Results

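The microRNA bantam was followed through 4 small RNA libraries of the citrus red mite, Panonychus citri, a spider mite that feeds on citrus leaves. Every listed row whose name starts with bantam was taken, which gave 3 of 594 names: bantam, bantam-1 and bantam-3p. The libraries were made from whole bodies of pooled animals, with 1 library for each of 4 stages and no replicates: over 3000 embryos, 2500 larvae, 1500 nymphs with protonymphs and deutonymphs mixed, and 1000 adults. No treatment, strain or sex is named in the labels, so as far as these go the groups differ in stage and in the number of animals. Values compare these libraries, and in whole bodies fewer cells that hold a miRNA cannot be told apart from less of it per cell.

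MicroRNAs are short RNAs that guide Argonaute proteins to messenger RNAs, mainly through the seed, which is bases 2 to 8 of the mature strand, and lower the output of those messages. In Drosophila bantam promotes tissue growth and cell division and holds back cell death by repressing the pro-apoptotic gene hid, and its transcription is raised by Yorkie, the effector of the Hippo growth pathway. It also acts there in germline stem cells and in neurons. Its targets in the mite were not measured in these libraries.

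The listed bantam sequences show what was counted under each name and are printed 5′ to 3′ as DNA letters, with the seed in capitals. The row miR-81 is printed with them because it was the only other name of the 594 with the same seed.
bantam: tGAGATCAttgtgaaagctg
bantam-1: tGAGATCAttgtgaaagct
bantam-3p: tGAGATCAttttgaaagctg
miR-81: tGAGATCAtagtgaaagct
The row bantam is 20 nucleotides long, and bantam-1 is the same sequence without its last base, at 19 nucleotides. Counted from 1 at the 5′ end of the row bantam, bantam-3p carries G11T and miR-81 carries T10A, both outside the seed. Each of these rows had 1 read in the nymph library and no row in the other 3. All 4 sequences share the seed. Reads under the bantam names thus made up all listed reads with this seed in the embryo, larva and adult libraries, and 3410 of 3411 in the nymph. Reads outside the lists were not searched.

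The listed miRNA reads numbered 248256 for embryos, 1012278 for larvae, 1258698 for nymphs and 438409 for adults, out of nearly equal library totals between 5918115 and 5957910 reads. Listed reads were thus 4.17% to 21.2% of a library, and this share differed between stages. Both scales are therefore given throughout: reads per 1000000 listed miRNA reads (listed RPM) and reads per 1000000 of the library total (library RPM). Intervals are exact 95% intervals for counting error alone, since each stage has 1 library. PCR copies of 1 molecule are counted as separate reads, so the intervals can be too narrow even for that error.

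The embryo library had the fewest bantam reads, with 145 over the bantam rows, against 1500 for larvae, 3410 for nymphs and 1259 for adults. In listed RPM the sum stood at 584 (493 to 687) for embryos, 1482 (1408 to 1559) for larvae, 2709 (2619 to 2802) for nymphs and 2872 (2715 to 3035) for adults. On this scale the embryo was lowest and the larva next, while the nymph and adult intervals overlapped. In library RPM the same reads gave 24.3 (20.5 to 28.6), 252 (239.9 to 265.6), 574 (555 to 593) and 213 (201 to 225). On the second scale the nymph stood above all other libraries, and the adult was placed between embryo and larva. The embryo was therefore lowest on both scales, and the place of the adult depended on the scale.

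**Figure D1:**
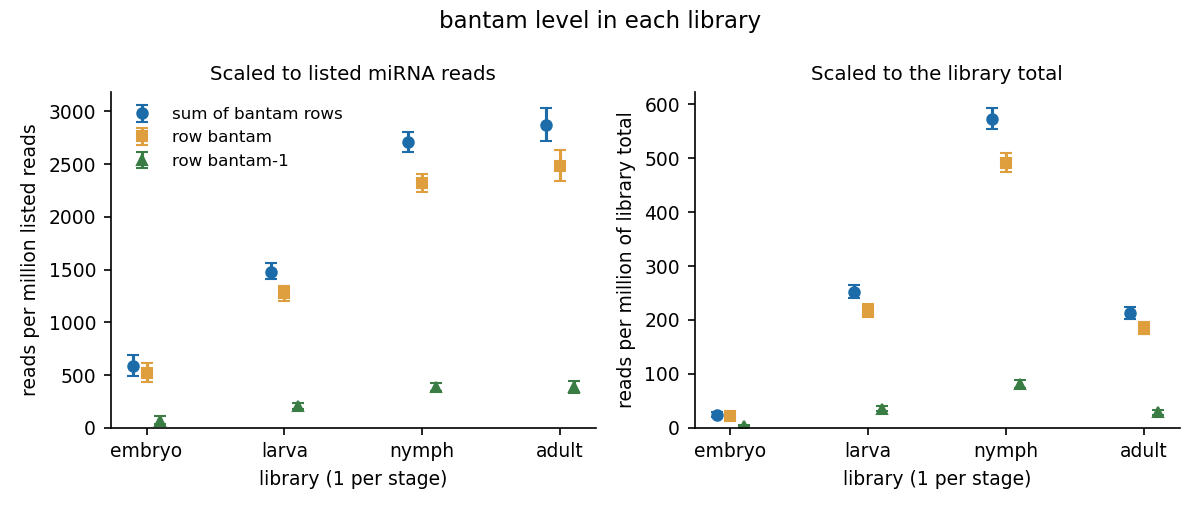
Level of bantam in each of the 4 libraries, in listed RPM (left) and library RPM (right), with points for the sum of the bantam rows and for the rows bantam and bantam-1, and bars for 95% counting intervals. The sum is lowest in the embryo in both panels, and the adult value of 2872 lies beside the nymph on the left while its value of 213 lies below the larva on the right.

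As a share, bantam was a minor part of the miRNA reads in every library. Embryos had 0.0584% of listed reads from bantam (0.0493 to 0.0687), larvae 0.148% (0.141 to 0.156), nymphs 0.271% (0.262 to 0.280) and adults 0.287% (0.272 to 0.303). Of the library total it held 0.00243%, 0.0252%, 0.0574% and 0.0213%. When length variants of each miRNA were joined into sequence groups, bantam ranked 26 of 212 groups by reads in embryos, 20 of 225 in larvae, 16 of 289 in nymphs and 15 of 224 in adults.

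The groups next to bantam in read number changed from library to library. In the embryo it stood between miR-122-5p with 164 reads and miR-263b with 140. The miR-122-5p reads varied little between libraries, with 194 in larvae, 232 in nymphs and 174 in adults. In the larva the neighbours of bantam were miR-276 with 1550 reads and miR-92-3p with 1382. In the nymph they were miR-252-5p with 3785 and the muscle miRNA miR-133 with 3286. In the adult they were miR-87 with 1610 and miR-281-5p with 1008. Reads are compared here between different sequences without a length scaling, since each read is a whole small RNA, and how readily a sequence takes an adapter also enters such a comparison.

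The first question was how bantam in the larva compared with the embryo. It was 2.54-fold higher in the larva in listed RPM (2.14 to 3.03), a difference called past 2-fold because the whole interval lies above 2. With the library totals it was 10.4-fold higher (8.74 to 12.4), and the call held under all 5 scalings tried. None of these left out miR-315 and miR-92-3p, which had 79795 and 49458 of the 248256 embryo listed reads. In the larva they had 4659 and 1382 of 1012278, so listed totals without them would give a lower ratio. Whether the call would hold with such totals was not tested. Among the 76 sequence groups with at least 30 reads over both libraries, 21.1% were called higher and 44.7% lower in listed RPM, against 44.7% higher and 3.95% lower with the library totals. A higher call was thus shared by many groups on the library scale. The ratio of bantam ranked 18 of 76 from the top and was 5.14 times the median ratio, 2 values that no scaling can change. That median was 0.494 in listed RPM and 2.02 with the library totals. Groups with nearly equal reads in both libraries lie below it, such as let-7b-5p with 601 in the embryo and 549 in the larva. Others were miR-140-3p with 177 and 157 and miR-451-5p with 76 and 67. Such groups enter the median and the share called lower, so the multiple of 5.14 depends on which names are counted. Whether they are miRNAs of the mite was not tested. The row bantam alone was 2.47-fold higher (2.06 to 2.99), and bantam-1, with 17 embryo reads, 3.02-fold (1.84 to 5.27), an interval that reaches below 2.

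From larva to nymph, bantam had a ratio of 1.83 in listed RPM (1.72 to 1.94), above 1 beyond counting error but not past 2-fold. With the library totals it was 2.27-fold higher (2.14 to 2.42) and called, the only scaling of the 5 under which it was. Of 86 groups, 12.8% were called higher and 3.49% lower in listed RPM, and 19.8% and 2.33% with the library totals. The bantam ratio ranked 22 of 86 and was 1.41 times the median ratio.

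Between nymph and adult the direction depended on the scaling. In listed RPM the adult over nymph ratio was 1.06 (0.993 to 1.13), which includes 1. It was 0.983 (0.921 to 1.05) with miR-1 left out of the listed totals, 0.679 (0.636 to 0.724) with TMM, 0.614 (0.575 to 0.656) with median-of-ratios scaling and 0.371 (0.347 to 0.396) with the library totals, the last called lower. Of 86 groups, 10.5% were called higher and 10.5% lower in listed RPM, against 0% and 45.3% with the library totals. On that scale 39 of the 86 groups, bantam included, were thus called lower. The ratio ranked 48 of 86 from the top and was 0.842 times the median ratio.

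Set against the embryo, the nymph and adult libraries were both higher under all 5 scalings. The adult was 4.92-fold higher in listed RPM (4.14 to 5.88) and 8.74-fold higher with the library totals (7.36 to 10.5). The nymph was 4.64-fold higher (3.93 to 5.52) and 23.6-fold higher (19.96 to 28.0) on these scales. Of the 72 groups tested for adult over embryo, 27.8% were called higher and 9.72% lower in listed RPM, and 29.2% and 5.56% with the library totals. For nymph over embryo, 30.1% of 83 groups were called higher and 33.7% lower in listed RPM, and 53.0% and 3.61% with the library totals. The bantam ratio ranked 13 of 72 for the adult and 17 of 83 for the nymph, at 7.64 and 7.24 times the median ratio. These multiples too depend on which names are counted.

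Adult against larva, which leaves out the nymph, gave no call under any of the 5 scalings. The ratio was 1.94 in listed RPM (1.80 to 2.09), 1.004 with median-of-ratios scaling (0.930 to 1.08) and 0.843 with the library totals (0.781 to 0.909). Of 79 groups, 27.8% were called higher and 8.86% lower in listed RPM, and 6.33% and 25.3% with the library totals. The ratio ranked 39 of 79, at 1.05 times the median ratio.

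**Figure D2:**
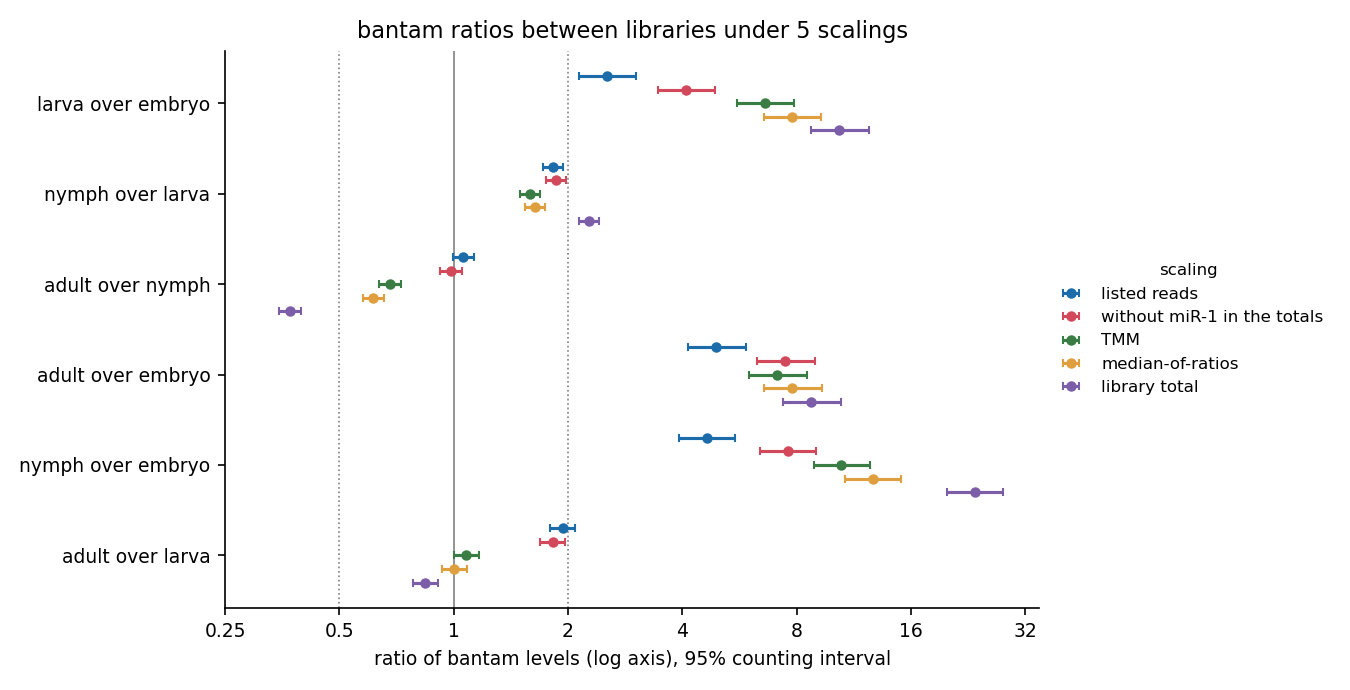
Ratios of the bantam sum between pairs of libraries on a log axis, with 1 point per scaling and 95% counting intervals; dotted lines mark 2-fold in either direction. The 3 ratios over the embryo lie above 2 under all 5 scalings, whereas adult over nymph runs from 1.06 to 0.371.

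**Figure D3:**
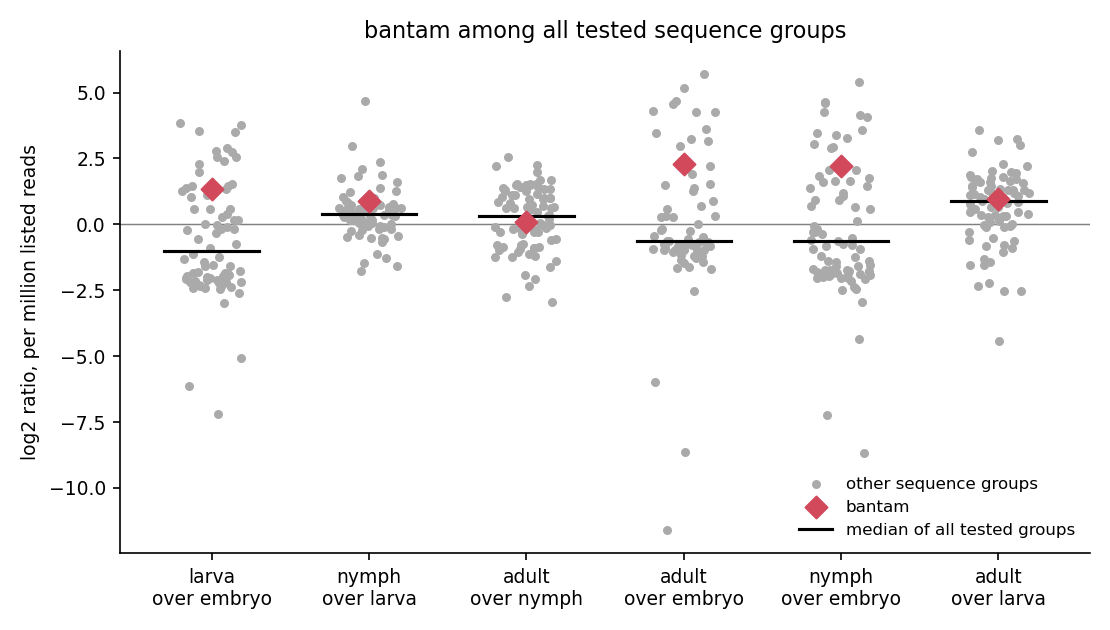
Log2 ratio in listed RPM of each sequence group with at least 30 reads over both libraries (grey), of bantam (diamond) and the median of all tested groups (line), for 6 pairs of libraries; 2, 2 and 3 groups with no reads in 1 library of nymph over larva, adult over nymph and nymph over embryo are not drawn. The diamond sits above the median line in the 3 comparisons with the embryo and near it in adult over larva.

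The balance between the listed bantam rows varied little from stage to stage. The shorter row bantam-1 held 11.7% of bantam reads in embryos (6.98 to 18.1), 13.9% in larvae (12.2 to 15.8), 14.2% in nymphs (13.1 to 15.4) and 13.4% in adults (11.6 to 15.4). All 4 intervals overlap, and the values span 2.50 percentage points. This share does not depend on the scaling. The single bantam-3p read made up 0.0293% of the nymph reads (0.000742 to 0.163).

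Other miRNAs with a pair of rows that differ by the last base served for comparison, in a search chosen after the bantam values were seen. Of the 7 pairs with at least 100 reads in every library, bantam included, the bantam pair had the smallest span. A pair leaves out any other row of its sequence group, and this part can differ between libraries. The miR-2b-3p pair had 124 of the 399 embryo reads of its group, but 1766 and 71 of the 1843 in the larva. Spans of different pairs are therefore not fully alike. The shorter row of the muscle miRNA pair miR-1b and miR-1a-3p went from 19.99% in the larva (19.7 to 20.3) to 29.0% in the nymph (28.7 to 29.3), a span of 9.01 points. The pair miR-34-5p and miR-34, of a miRNA linked to ageing in Drosophila, went from 14.5% in the larva (14.2 to 14.9) to 21.3% in the adult (21.0 to 21.6). These shares moved beyond counting error, while in the other 5 of the 7 pairs, bantam among them, all 4 intervals overlapped. The miR-1b and miR-34-5p pairs had at least 5711 and 824 reads in every library. The lowest depths of the other 5 pairs ran from 124 to 794 reads. Overlap of all 4 intervals was therefore not particular to bantam, whose lowest depth was 145 reads. It was also seen for the pairs led by let-7a-5p, miR-2b-3p, miR-122-5p and miR-140-3p. The let-7a-5p, miR-122-5p and miR-140-3p groups had fairly even reads over the libraries, such as 177, 157, 205 and 203 for miR-140-3p. Whether these groups are miRNAs of the mite was not tested. At lowest depths of 124 to 794 reads, overlap alone cannot show that a balance held steady.

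Some groups followed bantam closely over the 4 libraries. Likeness was measured as the root mean square distance between log2 levels, each centred on its own mean over the 4 libraries, among 47 other groups with at least 30 reads in every library. Scaling the libraries differently cannot change this distance, whose median over the 47 was 1.36. The closest group was miR-7, a miRNA of photoreceptor and sense organ development in Drosophila, at 0.18. It was followed by miR-190-5p at 0.31, miR-5735-3p at 0.42, miR-1 at 0.48 and miR-12 at 0.52. With 4 libraries this is a description, and nothing about shared control was measured.

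The sequences of these 5 leading rows are printed to show that none of them has the bantam seed, again in capitals.
miR-7: tGGAAGACtagtgattttg
miR-190-5p: aGATATGTttgatattcttggtt
miR-5735-3p: tGGACAACaggataatggcg
miR-1: tGGAATGTaaagaagtatggag
miR-12: tGAGTATTacatcaggtactg
The miR-7 group had 65 reads in embryos, 719 in larvae, 1379 in nymphs and 431 in adults, so that there were 223, 209, 247 and 292 bantam reads for every 100 of them. The miR-190-5p group had 77, 761, 1058 and 600 reads, the embryo and adult ones under its shorter row miR-190. For every 100 miR-190-5p reads bantam had 188, 197, 322 and 209.8. The abundant miR-5735-3p, with 10155 to 158190 reads, had 1.43, 1.31, 2.16 and 2.68 bantam reads for every 100. The miR-12 group, with 49, 185, 778 and 250 reads, was lowest in the larva against bantam, at 811 bantam reads per 100.

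**Figure D4:**
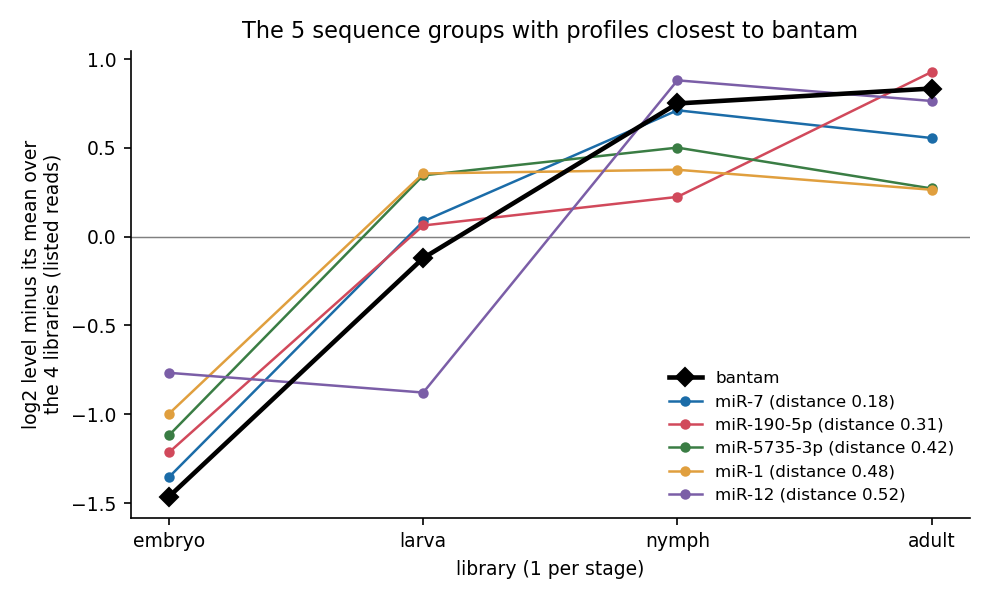
Log2 level in listed RPM minus its mean over the 4 libraries for bantam (black) and the 5 closest sequence groups, with their root mean square distance in the legend. The miR-7 line at distance 0.18 runs nearest to bantam, and miR-12 at 0.52 lies above it in the embryo and below it in the larva.

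Bantam was next set beside 15 miRNA families linked to growth or cell death in Drosophila, each summed over its rows. Of these, 10 had a row in any library, and miR-6, miR-11, miR-14, miR-33 and miR-308 had none. The families miR-13, with 1 read, and miR-275, with 1 to 8 reads a library, were too low to compare. The remaining 8 were miR-2, miR-7, miR-8, miR-9, miR-263, miR-278, miR-305 and miR-315. For larva over embryo 0 of 8 were called higher and 3 lower in listed RPM, against 5 and 1 with the library totals. For adult over embryo 2 were higher and 1 lower on both scales. The shares of all groups called in these comparisons are given above, and the list's median ratio was 1.40 for larva over embryo and 0.736 for adult over embryo, beside 0.494 and 0.643 over all tested groups.

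The families miR-2 and miR-263 act on cell death in Drosophila, as bantam does. The miR-2 family, which represses pro-apoptotic genes there, had 400, 1844, 3033 and 868 reads from embryo to adult. It outnumbered bantam in the embryo, where bantam had 36.3 reads for every 100, and had fewer reads than bantam in the adult, with 145 bantam reads for every 100. The adult over embryo ratio of bantam was thereby 4.001 times that of miR-2 (3.23 to 4.96). The miR-263 family, which protects sense organ cells from death and shares the target hid with bantam in Drosophila, had 1168, 7933, 10590 and 1063 reads. Bantam reads for every 100 of miR-263 numbered 12.4, 18.9, 32.2 and 118, and the adult over nymph ratio of bantam was 3.68 times that of miR-263 (3.36 to 4.03). In listed RPM that ratio was 1.06 for bantam and 0.288 for miR-263 (0.270 to 0.307). With the library totals it was 0.371 for bantam and 0.101 for miR-263. The miR-263 family was thus called lower in the adult on both scales, and bantam with the library totals alone.

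The families tied to insulin signalling, energy and tissue size went different ways in the adult. The miR-8 family, which raises insulin signalling and body size in Drosophila, had 122, 1025, 2081 and 4211 reads. Bantam and miR-8 stayed close up to the nymph, with 119, 146 and 164 bantam reads for every 100, and then parted, with 29.9 in the adult. The adult over nymph ratio of miR-8 was 5.48 times that of bantam (5.04 to 5.96), and for adult over embryo it was 3.98 times (3.08 to 5.14). The miR-278 family, which acts in energy balance and can drive tissue overgrowth in the fly, went the other way, with 56, 481, 873 and 72 reads. For every 100 of them bantam had 259, 312, 391 and 1749 reads, and its adult over nymph ratio was 4.48 times that of miR-278 (3.48 to 5.82).

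Of the other growth-linked families, summed over both arms of the precursor, miR-305 and miR-9 outnumbered bantam in the embryo alone and miR-315 in the embryo and larva. For miR-305 and miR-9 this came from the 3p arm, since the embryo had 229 miR-305-3p and 315 miR-9a-3p group reads but 64 miR-305c-5p and 112 miR-9-5p group reads, against 145 of bantam. Reads of miR-305, which acts in gut stem cells in Drosophila, numbered 293, 315, 1053 and 385, so that bantam had 49.5 reads for every 100 in the embryo and 476, 324 and 327 later. Reads of miR-9, whose member miR-9a acts on sense organ precursors, numbered 433, 705, 1407 and 353, with 33.5, 213, 242 and 357 bantam reads for every 100. For miR-315, which activates Wingless signalling when overexpressed in the fly, the reads were 79795, 4659, 2665 and 352, and bantam had 0.182, 32.2, 128 and 358 for every 100. The miR-7 family, with 93, 811, 1511 and 481 reads over all its rows, moved least against bantam, which had 156, 185, 226 and 262 for every 100. The adult over embryo ratio of bantam was above that of 7 of the 8 families and below that of miR-8, and every interval of the quotient of these ratios excluded 1. Among the 72 sequence groups tested in this comparison, 59 had a lower ratio than bantam and 12 a higher one. A ratio below that of bantam was thus not particular to these families.

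**Figure D5:**
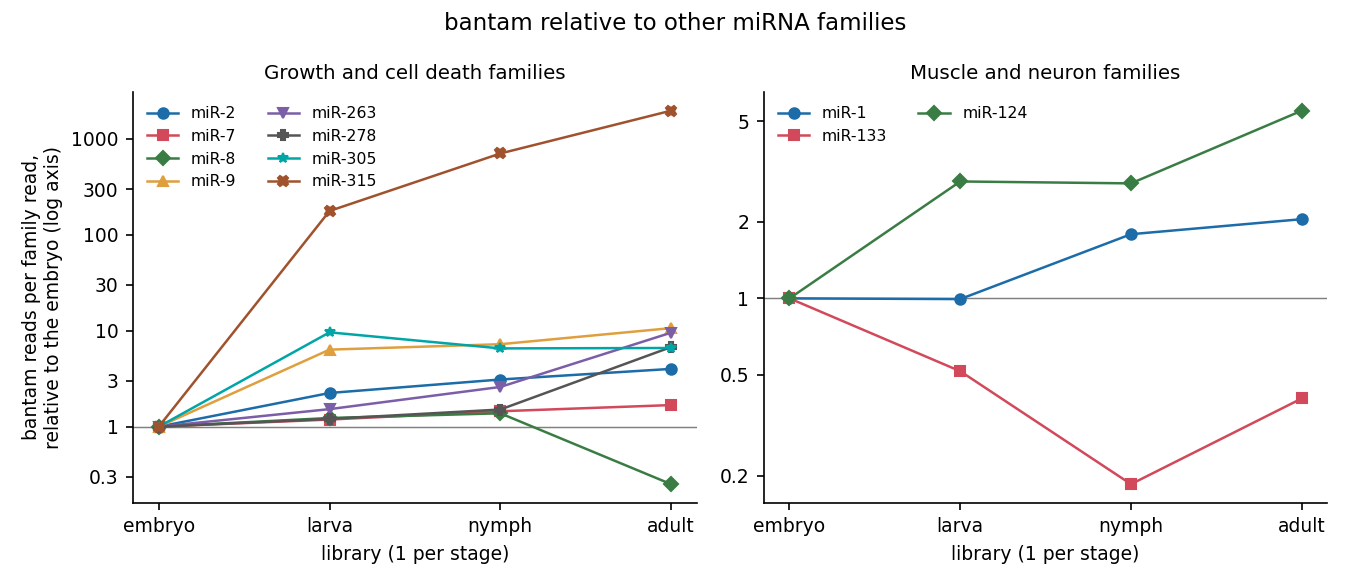
Bantam reads per read of each family, divided by the embryo value and drawn on a log axis, for 8 growth and cell death families (left) and for muscle and neuron families (right). The miR-8 line lies below 1 in the adult, where bantam had 29.9 reads for every 100, and in the right panel all later values of miR-133 lie below 1.

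Tissue miRNAs were set beside bantam because the libraries hold whole bodies. For larva over embryo the ratio of bantam was 0.993 times that of the muscle family miR-1 (0.837 to 1.19), which does not differ beyond counting error, and bantam had 0.297 and 0.296 reads for every 100 of miR-1 in these libraries. That number was 0.532 in the nymph and 0.610 in the adult. The other muscle family, miR-133, had 26, 521, 3301 and 560 reads and had higher ratios than bantam up to the nymph, with 558, 288, 103 and 225 bantam reads for every 100. Reads of the neuronal family miR-124 numbered 3316, 11874, 27465 and 5242, and bantam had 4.37, 12.6, 12.4 and 24.0 for every 100. For nymph over larva the ratio of bantam was 0.983 times that of miR-124 (0.921 to 1.05), again not different beyond counting error. The part of tissue make-up in the bantam values was not tested.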

How the data were processed

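Per the labels' protocols, the RNA was size-selected to 18 to 30 nucleotides on a 15% gel before adapter ligation, PCR and sequencing. For each library the authors deposited a list of miRNA names with a whole-number read count, 1 sequence and a normalized value. The deposited normalized column is in reads per 1000000 (RPM): read count over RPM gave the same total in every row of a library. The sources used here do not state the matching program, the miRNA reference or the mismatch rule, nor whether a count covers reads of other lengths. Whether every listed name is a miRNA of the mite was not tested, and all names enter the medians and shares over groups. Only names with at least 1 read are listed.

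The members, lists and comparisons were chosen with earlier results of these data known. Names of 1 family number were joined into 366 sequence groups where they matched exactly over an overlap of 17 or more bases. Ratios of 2 libraries have exact conditional binomial (Clopper-Pearson) 95% intervals (scipy 1.17.1), and a group whose reads in the pair summed to 30 or more was called when its interval lay wholly above 2 or below 0.5. Quotients of the ratios of 2 miRNAs have exact conditional odds ratio intervals. The rule was run on simulated counts with known changes and counting error alone. Such counts hold no variation between replicates or from PCR copies, so the run cannot show how the rule fares with these. With 1 library per stage, stages were not tested and no p-value was computed. Alternatives were the library totals, median-of-ratios factors, TMM (edgeR 4.0.16), totals without miR-1, single rows, no read minimum and names as listed. Named miRNAs were the bantam rows, their neighbours by reads, names sharing their seed, the 5 closest profiles, and families linked to growth, cell death, muscle and neurons.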

Additional observations from a re-analysis of the deposited data

How the results depend on the processing

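The bantam ratios of larva, nymph and adult over embryo kept their direction and their call under the library totals, median-of-ratios scaling, TMM, totals without miR-1, and the row bantam alone. Listed totals without miR-315 and miR-92-3p, which had far more reads in the embryo than later, were not tried. They would lower these ratios, and whether the calls would hold was not tested. Nymph over larva was called with the library totals only (2.27). Adult over nymph turned below 1 with the library totals (0.371), median-of-ratios scaling (0.614), TMM (0.679) and miR-1 left out of the totals (0.983), and adult over larva did so with the library totals (0.843). The scalings that were tried differ by construction in the library factors alone. Leaving out the row bantam-3p, a choice made after seeing the data, changed 0 of 6 calls. Counts of groups called higher and lower moved with the library totals from 16 and 34 to 34 and 3 (larva over embryo), from 11 to 17 higher (nymph over larva), from 9 and 9 to 0 and 39 (adult over nymph), from 7 to 4 lower (adult over embryo), from 25 and 28 to 44 and 3 (nymph over embryo) and from 22 and 7 to 5 and 20 (adult over larva). With names as listed, the counts beyond 1.5 times the main value were 30 higher (larva over embryo), 26 and 12 (nymph over larva), 17 and 24 (adult over nymph), 34 and 17 (adult over embryo), 47 and 45 (nymph over embryo) and 15 lower (adult over larva). Without a minimum of reads every count lay within 1.5 times its main value. No paired analysis was possible because each stage has 1 library. The 145 embryo reads limit the precision of every ratio over the embryo, and no replicate error could be set beside any value.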
